A study of Mus musculus with 7 samples.

Results

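Levels of 9 genes known for maintaining microglial identity were examined in microglia of the mouse dorsal hippocampus: the transcription factor genes Sall1, Mef2a, Mef2c, Spi1 and Runx1, and the genes Tgfb1, Tgfbr1, Tgfbr2 and Smad3 of transforming growth factor beta (TGF-beta) signalling. The genes were chosen by name for their known roles, at a time when earlier results of these data were known. All 9 were found among the 55401 gene identifiers of the deposited table through GENCODE M21 symbols. All 9 also passed the filter on low counts that left 19199 genes for testing.

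RNA-seq was run on 7 libraries of cells enriched with beads against CD11b, a myeloid surface protein, from C57BL/6 mice of 6 to 8 weeks, which the series title describes as adult males. The dorsal dentate gyrus of all mice was injected with AAV-RAM-Cre. RAM is a synthetic promoter that is active in neurons engaged by an experience, so that Cre, and whatever Cre switches on, is made in these engram neurons and not by design in microglia. The 4 libraries called EYFP 1 to 4 came from mice co-injected with AAV-Dio-EYFP, which gives a fluorescent protein after Cre recombination, and the 3 called ATG7 1 to 3 from mice co-injected with AAV-Dio-Atg7-Flag, which gives the autophagy protein ATG7. The labels do not say whether a library came from 1 mouse or from a pool. The p-values weigh differences against the spread between these libraries, which may not be the spread between mice. The comparison asks whether raising ATG7 in engram neurons is accompanied by a difference in the microglia around them.

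TGF-beta is secreted as a latent complex and released at the cell surface. The free ligand binds the type II receptor TGFBR2, which recruits and phosphorylates the type I receptor TGFBR1; TGFBR1 then phosphorylates SMAD3 and its relative SMAD2, which enter the nucleus with SMAD4. In the adult brain this signal is known to be needed for the mature microglial state, in which PU.1 (encoded by Spi1) and RUNX1 set the myeloid programme, MEF2 factors act at microglial enhancers, and SALL1 separates microglia from other macrophages.

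The libraries held between 35934210 and 55217119 counts. Values are CPM, counts scaled to a common library size with by trimmed mean of M values (TMM) factors. Atg7 itself was between 31.9 and 37.6 CPM in all libraries (log2 fold change -0.0253, SE 0.0787, adjusted p = 0.939, edgeR), which in microglia checks nothing about the neurons. Microglial markers were abundant, with 9 markers summing to between 19830 and 24383 CPM, but so were 7 choroid plexus markers, at 45105 to 70339 CPM. Neuronal markers summed to at most 68.8 CPM, and Snap25, which defines neurons, was between 0.0665 and 6.14 CPM. EYFP 3 stood apart, with 938 CPM of the female-specific transcript Xist against at most 0.573 CPM in the other libraries, and estimates that changed sign without it are given.

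No difference between ATG7 and EYFP was detected for any of the 9 genes. Genes were called at a Benjamini-Hochberg adjusted p under 0.05 over all tested genes, from the quasi-likelihood test of edgeR. By this rule 0 of 9 passed, where 0.755% of all tested genes did, 0.688% as higher and 0.0677% as lower in ATG7. The same count was 0 with DESeq2, with limma-voom and with each library left out in turn, EYFP 3 included. An unadjusted p under 0.05 was found for 0 of 9, against 12% of all tested genes. The 9 adjusted p-values lay between 0.629 and 0.991. By estimate 6 genes were higher and 3 lower in ATG7, and the median log2 fold change was 0.0416, against -0.00365 over all tested genes. The sign of Tgfb1 turned with scaling by microglial genes (-0.0195), and that of Sall1 with limma-voom (-0.000227). The 95% confidence intervals together ran from -0.32 to 0.36 on the log2 scale, which is a fold between 0.798 and 1.29. These are the widest bounds of any of the 9, and the interval of each gene is given with its values. All EYFP libraries lay apart from all ATG7 libraries in 0 of 9 genes, against 11.2% of all tested genes.

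**Figure D1:**
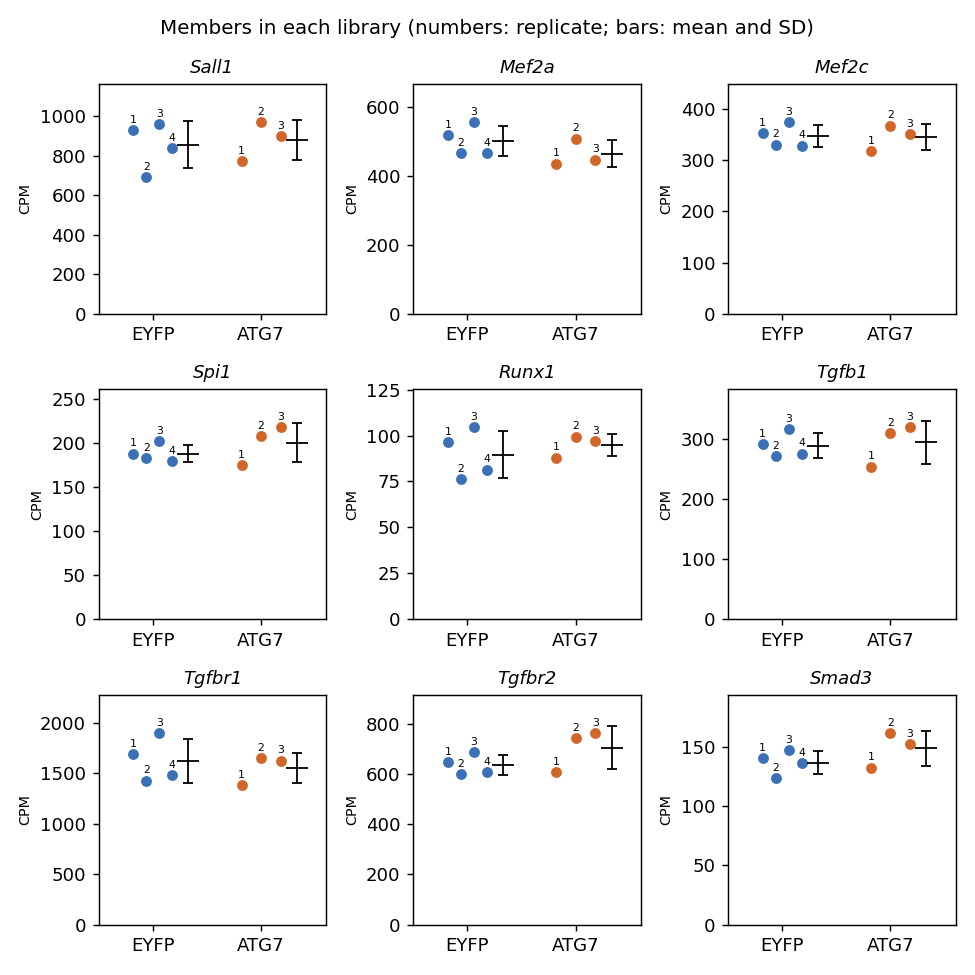
Level of each of the 9 genes in CPM (vertical axis, from 0) in the 4 EYFP and 3 ATG7 libraries, 1 point a library, with the mean and SD beside the points. The groups overlap in every panel, EYFP 3 is the highest EYFP library and ATG7 1 the lowest ATG7 library throughout.

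Sall1 encodes the zinc-finger repressor that marks microglia among brain macrophages. It lies on chromosome 8 from 89027235 to 89044162 (GRCm38). Sall1 was at 928, 692, 957 and 839 CPM in EYFP 1 to 4 and at 769.7, 969.7 and 898 CPM in ATG7 1 to 3. EYFP 2 was the lowest library and ATG7 2 the highest, and the groups overlapped over most of their range. EYFP averaged 854 ± 119 CPM (SD, n = 4) and ATG7 879 ± 101 CPM (SD, n = 3). The log2 fold change was 0.0416 with a confidence interval from -0.23 to 0.31 (edgeR adjusted p = 0.936).

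Spi1, the gene of the ETS-family factor PU.1 on which all myeloid cells depend, lies on chromosome 2 from 91082390 to 91115756. Spi1 was at 188, 183, 202 and 180.0 CPM in EYFP and at 176, 208 and 218 CPM in ATG7. The EYFP libraries were close together, and the ATG7 libraries lay on both sides of them. Its log2 fold change was 0.0907 (-0.10 to 0.28, edgeR adjusted p = 0.754).

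Runx1, a Runt-domain factor that works with PU.1 during myeloid development, spans 92601466 to 92826149 on chromosome 16. It had the lowest counts of the 9 genes, with at least 3323 in every library, so counting error alone was at most 1.73%. Runx1 was at 96.3, 76.4, 104 and 81.5 CPM in EYFP and at 87.9, 99.4 and 97.04 CPM in ATG7. EYFP libraries occupied both ends of the range. The log2 fold change was 0.0806 (-0.15 to 0.31, edgeR adjusted p = 0.833).

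Mef2a and Mef2c encode related MADS-box factors. Mef2a (chromosome 7, 67231163 to 67372858) was at 519, 467, 557 and 467 CPM in EYFP and at 436, 509 and 448 CPM in ATG7. ATG7 1 and ATG7 3 were below every EYFP library, and ATG7 2 was inside the EYFP range. Its log2 fold change was -0.11 (-0.32 to 0.0949, edgeR adjusted p = 0.706). Mef2c (chromosome 13, 83504034 to 83667080) was at 354, 330.4, 375 and 329 CPM in EYFP and at 318, 368 and 352 CPM in ATG7. The Mef2c means were nearly equal, 347 ± 21.8 CPM in EYFP (SD, n = 4) and 346 ± 25.5 CPM in ATG7 (SD, n = 3). The log2 fold change was -0.00464 (-0.19 to 0.18, edgeR adjusted p = 0.991), and 0.0289 without EYFP 3 (adjusted p = 0.937). Mef2a overlaps Gm44667 on the same strand, at 4.91% of its level, and Lysmd4 on the opposite strand, at 2.92%, and the strand setting of the counting is not given in the sources used here.

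Tgfb1 encodes the ligand. It lies on chromosome 7 from 25687002 to 25705077. Tgfb1 was at 292, 271, 317 and 275 CPM in EYFP and at 254, 310.0 and 319 CPM in ATG7. The lowest and the highest library were both ATG7 libraries. The log2 fold change was 0.0276 (-0.19 to 0.24, edgeR adjusted p = 0.947).

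The type I receptor gene Tgfbr1 (chromosome 4, 47353222 to 47414931) had the highest counts of the 9 genes. Tgfbr1 was at 1686, 1426, 1898 and 1478 CPM in EYFP and at 1381, 1647 and 1625 CPM in ATG7. EYFP 3 was the highest library and ATG7 1 the lowest. EYFP averaged 1622 ± 216 CPM (SD, n = 4) and ATG7 1551 ± 148 CPM (SD, n = 3). The log2 fold change was -0.0648 (-0.32 to 0.20, edgeR adjusted p = 0.887). Without EYFP 3 the Tgfbr1 estimate changed sign, to 0.0138 (edgeR adjusted p = 0.978).

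The type II receptor gene Tgfbr2 (chromosome 9, 116084293 to 116175360) had the highest estimate of the 9. Tgfbr2 was at 649, 601, 688 and 608 CPM in EYFP and at 606, 743 and 763 CPM in ATG7. ATG7 2 and ATG7 3 were above every EYFP library, and ATG7 1 was at the low end of EYFP. EYFP averaged 636 ± 40.2 CPM (SD, n = 4) and ATG7 704 ± 85.5 CPM (SD, n = 3). The estimate on the log2 scale was 0.15 (-0.0733 to 0.36, edgeR adjusted p = 0.629).

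Smad3 encodes the transcription factor that carries the receptor signal to the nucleus and lies on chromosome 9 from 63646767 to 63757994. It was at 141, 123, 147 and 136 CPM in EYFP and at 133, 162 and 152 CPM in ATG7. As for Tgfbr2, ATG7 2 and ATG7 3 were above every EYFP library and ATG7 1 was not. The log2 fold change was 0.12 (-0.0739 to 0.32, edgeR adjusted p = 0.657).

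**Figure D2:**
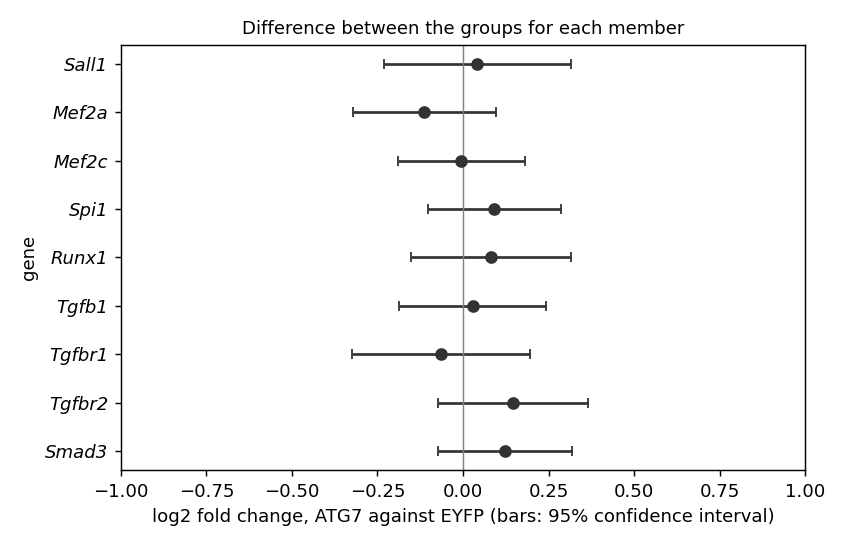
Log2 fold change of ATG7 against EYFP for each of the 9 genes (horizontal axis), with bars for the 95% confidence interval from the edgeR fit over 7 libraries. Every interval includes 0, and the estimates run from -0.11 for Mef2a to 0.15 for Tgfbr2.

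Per kilobase of merged exon length, a scale on which genes can be compared with each other, Tgfbr1 had the highest level, at 244 ± 27.4 CPM per kilobase (SD, n = 7 libraries), followed by Sall1 at 164 ± 19.7. Tgfbr2 (81.3 ± 8.24) and Spi1 (71.8 ± 5.94) came next, and their libraries overlapped although Tgfbr2 was the higher of them in 7 of 7 libraries. Tgfb1 was at 57.7 ± 5.02 and Mef2a at 33.1 ± 2.96. Smad3 (25.6 ± 2.32) and Mef2c (22.04 ± 1.36) were the other neighbours whose libraries overlapped. Runx1 was lowest, at 7.64 ± 0.847. The order depends on the transcript taken for the length: with the longest annotated transcript in place of merged exons, Mef2a was at 87.8 and Mef2c at 55.2 CPM per kilobase, Tgfb1 at 113, Spi1 at 95.2 and Runx1 at 15.7, so that Tgfb1, Spi1 and Mef2a came before Tgfbr2 at 82.2.

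The libraries at the ends of each group were mostly the same for the 9 genes. EYFP 3 was the highest EYFP library in 9 of 9 genes, ATG7 1 the lowest ATG7 library in 9 of 9, and EYFP 2 or EYFP 4 the lowest EYFP library in 9 of 9. How many of all tested genes have the same libraries at the ends was not computed. In ATG7 2 each of the 9 genes was above its mean over the libraries, by 0.0572 (Tgfbr1) to 0.193 (Smad3) on the log2 scale. ATG7 3 and EYFP 1 were mixed. In ATG7 3 Mef2a was below its mean over the libraries (-0.11 on the log2 scale) and the other genes above theirs. In EYFP 1 Spi1, Tgfbr2 and Smad3 were below theirs. The summed microglial markers followed the same order at those ends, with EYFP 3 highest of EYFP at 24302 CPM, EYFP 2 lowest at 20180 CPM and ATG7 1 lowest of ATG7 at 19830 CPM. This order was not particular to microglial markers. Border macrophage markers summed to 605 CPM in EYFP 3, 499 CPM in EYFP 4 and 540 CPM in ATG7 1, again the ends of the groups. Blood myeloid markers had the same end libraries, at 77.5, 51.1 and 41.1 CPM. In the marker lists of the other cell types EYFP 3 was not the highest EYFP library. Choroid plexus markers were highest in EYFP 2 (70339 CPM) and lowest in ATG7 2 (45105 CPM), and 7 of 7 were lower in ATG7 by estimate, with a median log2 fold change of -0.27 and 0 called. Fewer cells of a type and less RNA per cell cannot be told apart in bulk libraries, and the part of cell composition in these levels was not tested.

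**Figure D3:**
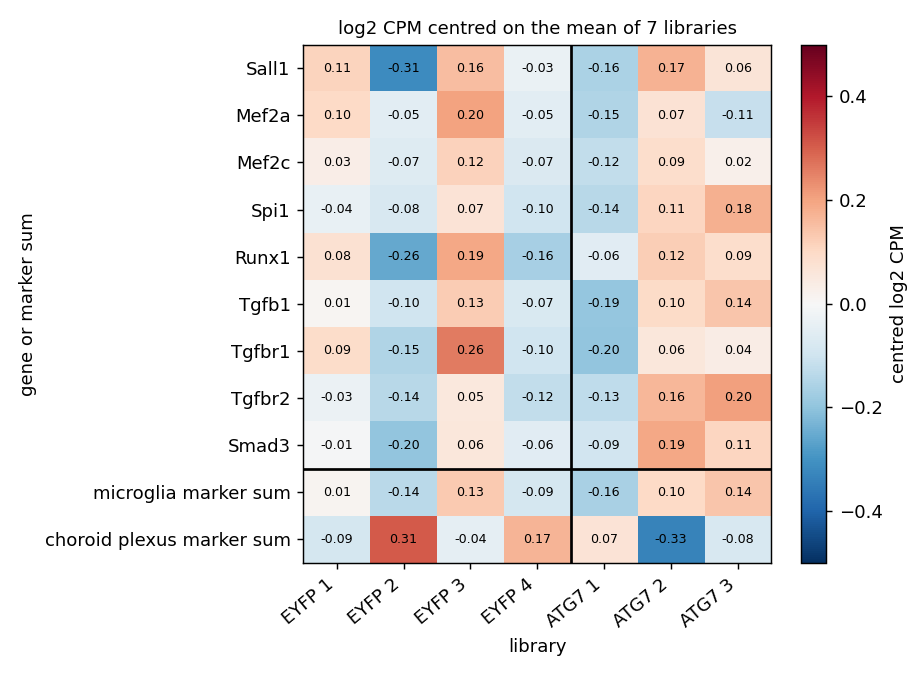
Log2 CPM of the 9 genes, and of the summed microglial and choroid plexus markers, in each of 7 libraries, centred on the mean of each row over the libraries (colour scale and printed numbers in log2 units). ATG7 1 is below the row mean for every one of the 9 genes and for the microglial markers.

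Each gene was therefore also expressed as a percentage of the geometric mean of 6 microglial genes (Csf1r, Cx3cr1, P2ry12 and Tmem119 among them) in the same library. The SD of log2 levels over the 7 libraries became smaller in 9 of 9 genes, with a median of 0.0689 in place of 0.131. The same share over all tested genes was not computed, so the count cannot be read as particular to these 9 genes. Tgfb1 was the extreme case. Its range of 0.33 on the log2 scale shrank to 0.0463, and it was at 12.4%, 12.7%, 12.5% and 12.6% of the microglial mean in EYFP and at 12.3%, 12.5% and 12.4% in ATG7. Mef2a was the opposite case, with an SD of 0.13 before and 0.12 after this scaling. Without EYFP 3, an alternative chosen after seeing the data, the SD became smaller in 8 of 9 genes (median 0.064 in place of 0.13), and that of Mef2a became larger (0.0996 before and 0.13 after).

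On this scale Tgfbr2 was at 27.5%, 28.1%, 27.2% and 27.9% in EYFP and at 29.3%, 29.9% and 29.7% in ATG7, so every ATG7 library was above every EYFP library. Mef2a was at 22.0%, 21.9%, 22.1% and 21.4% in EYFP and at 21.1%, 20.5% and 17.4% in ATG7, with every ATG7 library below EYFP and ATG7 3 well below the rest. In the other 7 genes the groups overlapped, and the same 2 genes lay apart without EYFP 3. A separation of this kind was found in 7.04% of all tested genes on the same scale. Neither Tgfbr2 (log2 fold change 0.10, adjusted p = 0.929) nor Mef2a (-0.15, adjusted p = 0.879) passed the edgeR test with this scaling, in which 0.365% of genes were called.

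Ratios of 2 genes within a library (0.5 added to each count) do not depend on how libraries are scaled, and 4 of them were compared by exact permutation tests, two-sided, over the 35 splits into 4 and 3 libraries. The ratio of ligand to type II receptor counts, Tgfb1 to Tgfbr2, was 0.4498, 0.451, 0.461 and 0.453 in EYFP and 0.419, 0.417 and 0.418 in ATG7. The groups did not overlap, and the difference was -0.12 on the log2 scale, with SDs of 0.0156 (n = 4) and 0.0024 (n = 3). The exact permutation test gave p = 0.0286, the smallest this design can give, and 0.0571 after adjustment over the 4 ratios. This test ranks the splits and does not weigh the difference against the SDs. Counting error alone was 0.992% for Tgfb1 and 0.649% for Tgfbr2 at their lowest counts. The SD of 0.0024 in ATG7 is below what counting error gives, so it does not measure the spread between libraries.

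The receptor ratio Tgfbr1 to Tgfbr2 was 2.599, 2.37, 2.76 and 2.43 in EYFP and 2.28, 2.22 and 2.13 in ATG7, also without overlap. Its log2 difference was -0.20, but another split gave one at least as large (exact p = 0.0571, adjusted 0.0762). Mef2a to Mef2c was 1.47, 1.42, 1.49 and 1.42 in EYFP and 1.37, 1.38 and 1.27 in ATG7, a log2 difference of -0.11 without overlap (exact p = 0.0286, adjusted 0.0571). Runx1 to Spi1 overlapped, with a log2 difference of 0.00371 (exact permutation p = 1.00).

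After adjustment 0 of 4 ratios passed 0.05. Of all 36 possible pairs 33.3% had EYFP and ATG7 libraries apart, and pairs that share a gene are not independent. Mef2a and Tgfbr2 were each in 5 of these pairs and Sall1 in 0. The share among pairs of all tested genes was not computed. Neither the 33.3% nor the separated ratios can therefore be read as particular to these genes. The differences rest on no single library for their direction: leaving out each library in turn gave -0.12 to -0.11 for Tgfb1 to Tgfbr2, -0.23 to -0.16 for Tgfbr1 to Tgfbr2 and -0.13 to -0.0699 for Mef2a to Mef2c. Markers of other cell types also differed by estimate between the groups. The choroid plexus markers were lower in ATG7, as given above. The 8 endothelial and mural markers summed to 443 to 731 CPM in EYFP and 575 to 982 CPM in ATG7, with 8 of 8 higher by estimate and 0 called. The 6 lymphocyte markers summed to 1.15 to 3.88 CPM in EYFP and to 4.07, 5.35 and 12.1 CPM in ATG7 1 to 3, without overlap. Of the 5 tested, 4 were higher and 1 lower by estimate, with 0 called. Ms4a1 (at most 0.414 CPM) and Cd79a (0.236 to 0.494 CPM) overlapped between the groups. The part of these cell types in the ratios was not tested.

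**Figure D4:**
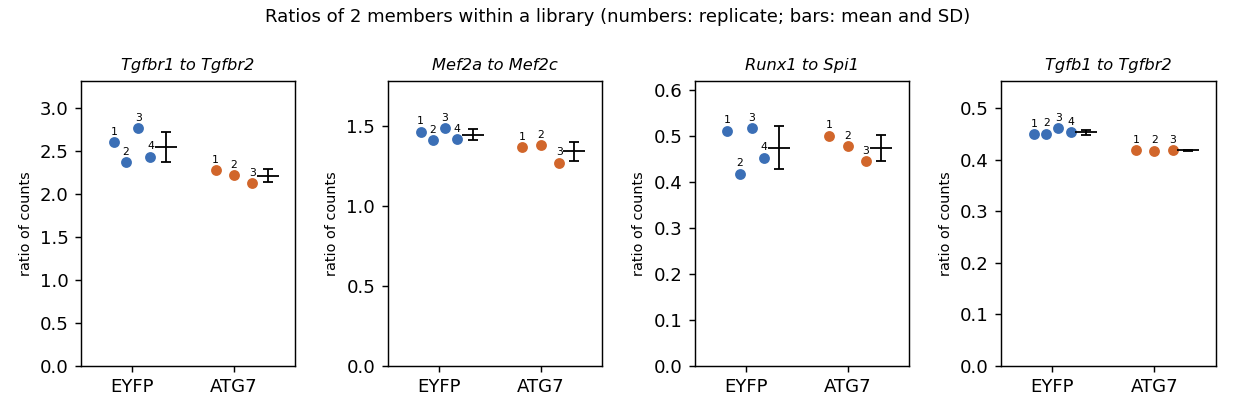
Ratio of the counts of 2 genes within a library (vertical axis, from 0) for 4 pairs, 1 point a library, with the mean and SD of each group beside the points. ATG7 libraries are below EYFP libraries in 3 pairs, and the groups overlap for Runx1 to Spi1.

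Groups lay apart in 3 of the 4 ratios tested, and in 12 of all 36 pairs. The promoters of 2 of these 3 tested pairs, Mef2a with Mef2c and Tgfbr1 with Tgfbr2, are shown so that their sequences can be set side by side. Each is 250 bases before to 30 after an annotated start, 5′ to 3′, from RefSeq on GRCm38.p6, and capitals mark matches on either strand to GAGGAAG (a PU.1-type word) or to a MEF2-type word, which is the last capital run of Mef2a. A SMAD-type word, CAGACA, was also searched and lies in full in none of the 4 printed windows. For Mef2c, the window of an internal start that holds a match is shown, and for Tgfbr1 the window of the 5′-most start.
Mef2a, chr7:67372829-67373108, minus strand: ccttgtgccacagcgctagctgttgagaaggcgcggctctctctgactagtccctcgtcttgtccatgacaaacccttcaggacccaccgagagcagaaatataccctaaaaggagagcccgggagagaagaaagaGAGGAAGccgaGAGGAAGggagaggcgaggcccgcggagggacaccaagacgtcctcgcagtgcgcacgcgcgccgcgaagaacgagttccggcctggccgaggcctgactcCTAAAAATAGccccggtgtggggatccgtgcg
Mef2c, chr13:83523406-83523685, plus strand: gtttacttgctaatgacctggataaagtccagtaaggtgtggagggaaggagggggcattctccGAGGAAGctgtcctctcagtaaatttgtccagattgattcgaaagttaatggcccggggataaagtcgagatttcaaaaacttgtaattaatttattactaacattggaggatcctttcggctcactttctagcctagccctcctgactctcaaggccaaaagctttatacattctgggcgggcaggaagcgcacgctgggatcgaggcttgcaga
Tgfbr1, chr4:47352972-47353251, plus strand: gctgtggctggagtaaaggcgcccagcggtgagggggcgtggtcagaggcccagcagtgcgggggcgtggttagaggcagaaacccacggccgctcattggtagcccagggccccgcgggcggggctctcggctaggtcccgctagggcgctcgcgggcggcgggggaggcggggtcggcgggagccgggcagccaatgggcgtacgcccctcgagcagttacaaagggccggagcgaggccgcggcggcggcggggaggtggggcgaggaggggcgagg
Tgfbr2, chr9:116175334-116175613, minus strand: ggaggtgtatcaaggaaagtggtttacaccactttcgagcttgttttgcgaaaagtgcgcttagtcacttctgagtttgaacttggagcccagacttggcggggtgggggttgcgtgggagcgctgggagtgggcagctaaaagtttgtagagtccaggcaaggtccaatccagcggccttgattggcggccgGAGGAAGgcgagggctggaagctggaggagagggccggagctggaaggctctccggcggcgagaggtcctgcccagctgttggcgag

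The Mef2a promoter held the PU.1-type word 2 times, 114 and 103 bases before the start, and a MEF2-type word that spans the start. Those of Mef2c and Tgfbr2 held the PU.1-type word 1 time each. The printed Tgfbr1 window held none of these words, but a window of Tgfbr1 at another start, chr4:47385966-47386265, held the PU.1-type word 95 bases before that start. No window of Tgfb1 held any of the words. The RefSeq table had 8 of the 9 genes, in 14 windows of 300 bases, and Spi1 was not matched. Of all 32851 windows in that table, 13.6% held the PU.1-type word, 21.04% the SMAD-type word and 0.11% the MEF2-type word, which do not overlap each other in these 4 sequences. Among the 14 windows of the 8 genes 4 held the PU.1-type word, 2 the SMAD-type word (Mef2c, past the printed end, and another window of Tgfbr1) and 1 the MEF2-type word. A window of Runx1 held a RUNX-type word, AACCACA, 2 times after the start, and 5.27% of all windows hold it at least 1 time. These 30 bases carry both, in capitals.
Runx1, chr16:92826025-92826054, minus strand: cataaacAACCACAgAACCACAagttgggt

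A match is a string of letters and not a measured binding site, and no factor was measured at these promoters.

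The pathway around the 9 genes was described with 6 lists, which hold 90 further genes, 89 of them tested. Of the 89 genes 1 was called, where 0.755% of all tested genes were. In 9 of them the EYFP and ATG7 libraries lay apart, a share near the 11.2% of all tested genes, with 8 higher in ATG7 (Cebpa, Cebpb, Spib, Itgb5, Eng, Smad7, Tgif1 and Cdkn1a) and 1 lower (Gas6).

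**Figure D5:**
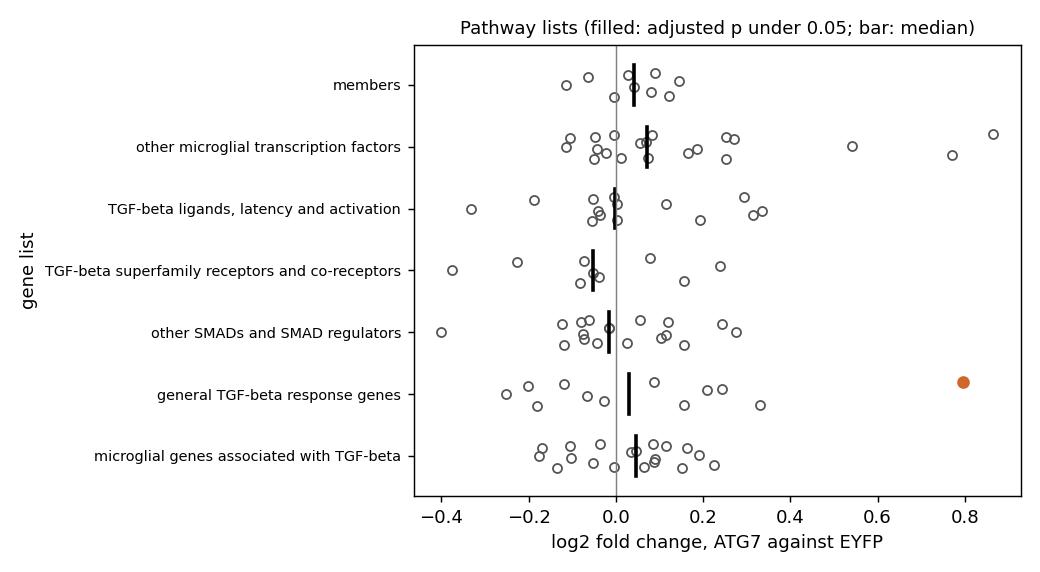
Log2 fold change of ATG7 against EYFP (horizontal axis) for the 9 genes and for each tested gene of the 6 pathway lists, 1 circle a gene, filled where the edgeR adjusted p is under 0.05, with a bar at the list's median. The medians lie between -0.0517 and 0.0723, and Cdkn1a is the filled circle.

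Among other microglial transcription factors 0 of 20 passed, with a median log2 fold change of 0.0723. Cebpb, an inflammatory basic leucine zipper factor, had the smallest p. It was at 10.8, 9.72, 10.3 and 11.4 CPM in EYFP and at 23.4, 17.7 and 12.9 CPM in ATG7, with every ATG7 library above EYFP and wide spread among them. The estimate was 0.77 on the log2 scale (SE 0.167, edgeR adjusted p = 0.0735), and DESeq2 called it (0.77, adjusted p = 0.00174).

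Of the genes of TGF-beta ligands, latency and activation 0 of 14 tested passed, and the median was -0.000971. Thbs1, whose product thrombospondin releases TGF-beta from its latent form, averaged 29.4 ± 2.03 CPM in EYFP (SD, n = 4) and 37.1 ± 4.48 CPM in ATG7 (SD, n = 3), with an estimate of 0.34 on the log2 scale (edgeR adjusted p = 0.167). Itgb5, an integrin chain and the gene of this list with the highest level per length, had a log2 fold change of 0.29 (edgeR adjusted p = 0.271) with every ATG7 library above EYFP. The other ligand genes, Tgfb2 and Tgfb3, were at 100.4 to 152 CPM and 3.17 to 4.36 CPM.

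Of the receptors and co-receptors 0 of 9 passed, with a median of -0.0517. The co-receptor gene Tgfbr3 (betaglycan) averaged 104 ± 14.5 CPM in EYFP (SD, n = 4) and 79.96 ± 10.9 CPM in ATG7 (SD, n = 3), with an estimate of -0.38 on the log2 scale (edgeR adjusted p = 0.220). Tgfbr3 was highest in EYFP 2 (122 CPM) and EYFP 4 (109 CPM) and lowest in ATG7 2 (71.2 CPM), and the choroid plexus markers were highest and lowest in the same libraries; their part in the Tgfbr3 values was not tested. Eng, the endothelial co-receptor endoglin and the highest of this list per length, had a log2 fold change of 0.24 (edgeR adjusted p = 0.342).

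Among other SMADs and their regulators 0 of 18 passed, with a median of -0.0161. Tgif1, a SMAD corepressor, had the smallest p and did not overlap between groups, with a log2 fold change of 0.28 (edgeR adjusted p = 0.183). Ski, another corepressor and the highest per length, had -0.0158 (adjusted p = 0.971), and 0.0419 without EYFP 3 (adjusted p = 0.905).

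General TGF-beta response genes included the called gene. Cdkn1a, the gene of the cell-cycle inhibitor p21, was at 35.6, 24.7, 27.6 and 25.6 CPM in EYFP and at 47.4, 51.0 and 49.2 CPM in ATG7. EYFP averaged 28.4 ± 4.998 CPM (SD, n = 4) and ATG7 49.2 ± 1.77 CPM (SD, n = 3). Cdkn1a rose, with a log2 fold change of 0.80 (SE 0.115, edgeR adjusted p = 0.0133), and 3 of 3 ATG7 libraries were above every EYFP library. The call was lost without ATG7 2 (log2 fold change 0.77, edgeR adjusted p = 0.0714), without ATG7 3 (0.79, adjusted p = 0.0832), without EYFP 4 (0.75, adjusted p = 0.0583) and with replicate numbers entered as a block (0.76, adjusted p = 0.223). The block fit has less power, because EYFP 4 has no ATG7 library of its number and few degrees of freedom remain. Cdkn1a is also a well known target of p53. The other 11 genes of this list did not pass, and its median was 0.0303. Junb, the highest per length, had 0.21 (adjusted p = 0.610).

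Microglial genes associated with TGF-beta signalling showed 0 of 19 calls and a median log2 fold change of 0.0463. C1qa, a complement chain gene, had the smallest p (log2 fold change 0.22, edgeR adjusted p = 0.428). Tmem119 and P2ry12, a surface protein gene and a purinergic receptor gene used as markers of mature microglia, had 0.0878 (adjusted p = 0.850) and -0.17 (adjusted p = 0.647).

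The gene whose centred log2 CPM lay nearest to that of each of the 9 was sought among 10258 tested genes with a mean of at least 10 CPM, by the root mean square difference over 7 libraries. It was Hic2 for Sall1 (0.0277), Elovl1 for Spi1 (0.0189), Tmem104 for Runx1 (0.02204), Tcf20 for Mef2c (0.0207) and Inpp4b for Mef2a (0.0373). For Tgfb1 it was Cyfip1 (0.0267), for Tgfbr1 Wasf2 (0.0248), for Tgfbr2 the lysosomal protease gene Lgmn (0.0193) and for Smad3 Cstf1 (0.0262). The 9 genes themselves varied around their means by 0.0825 to 0.167 on the same measure. Each nearest gene is the best of 10258 on only 7 values, so a small difference follows from the search. Whether the genes of a pair are linked was not tested.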

How the data were processed

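RNA-seq counts of 7 libraries, EYFP 1 to 4 and ATG7 1 to 3, were analysed, grouped by sample title. The authors deposited raw counts per gene. The submitters' processing notes name fastp 0.20.1, HISAT2 2.0.5, featureCounts and the builds mm10 and GRCm38; strand setting, shared reads and annotation release are not given in the sources used here. GENCODE M21 (GRCm38) matched 55141 of 55401 identifiers, and 0 columns were unmatched.

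Counts were fitted with edgeR 4.0.16 in R 4.3.3 (TMM, filterByExpr, robust quasi-likelihood, 7 libraries, no covariate). SE is the absolute log2 fold change over the square root of F. CPM are counts over the deposited total times its TMM factor, and centred log2 CPM use a prior count of 2. Alternatives used DESeq2 1.42.0, limma 3.58.1, other scalings and filters, a replicate block and each library left out; the code that fits the models was tested on simulated counts. Same-group pairs had a chi-square of 19.2 to 41.3 per degree of freedom, so all were kept as separate samples. A floor of 3 counts was 0.0546 to 0.0819 CPM and covers counting error only.

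The genes and lists were chosen with earlier results of these data known. Besides the 9 genes, the text names in each list the genes that passed with the smallest p (up to 3), else the one with the smallest p, at a mean of at least 1 CPM, and the highest per length; the latter is not reported here for 2 lists. Tgfb2, Tgfb3, Tmem119, P2ry12, genes without overlap and single marker genes were named after their values were seen. Of the listed symbols 1 was found under its newer name, Ccn2.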

Additional observations from a re-analysis of the deposited data

How the results depend on the processing

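The 9 genes had 0 calls under every setting run. Of their 135 alternative estimates 12 changed sign, all near 0: Sall1 was at -0.000227 with limma-voom, Tgfb1 at -0.0195 with scaling by microglial genes, and the rest came from leaving out 1 library. Leaving out each library in turn gave -0.0526 to 0.13 for Sall1, -0.0506 to 0.0533 for Mef2c, -0.0407 to 0.12 for Tgfb1, -0.13 to 0.0138 for Tgfbr1, -0.0681 to 0.0419 for Ski and -0.083 to 0.0351 for Atg7, all as log2 fold changes, and -0.0554 to 0.0496 for the log2 ratio of Runx1 to Spi1. Over all genes, 145 were called (132 higher, 13 lower). DESeq2 called 572 (404 higher, 168 lower), edgeR with no filter 297 (234 and 63) and edgeR with scaling by microglial genes 70 (67 and 3), where the median over all genes moved to -0.0432; limma-voom called 25 lower. Leaving out 1 library gave 28 (without ATG7 2) to 277 (without EYFP 1) calls, 26 to 209 higher and 2 to 68 lower. With the replicate block 0 genes were called (0 higher, 0 lower) and 0 general response genes. The same-numbered libraries correlated at -0.0609, -0.182 and 0.0664 in their deviations from the group means. EYFP 1 correlated best with ATG7 2 (0.215). The labels do not say what a replicate number shares, and these few correlations cannot decide whether same-numbered libraries were paired. Other transcription factors had 1 call, Cebpb, with DESeq2, with no filter and without ATG7 3 (0 to 1 over libraries left out); general response genes had 0 to 1. List medians with 1 library left out ran from 0.0451 to 0.13 for other transcription factors, -0.0226 to 0.0429 for ligands, -0.0675 to -0.0247 for receptors, -0.0358 to 0.0376 for SMADs, -0.0537 to 0.10 for general response genes and -0.00615 to 0.11 for microglial genes. With the longest transcript, CPM per kilobase was 87.8 for Mef2a, 55.2 for Mef2c, 95.2 for Spi1, 15.7 for Runx1, 113 for Tgfb1 and 277 for Tgfbr1. Counting error for the levels of the 9 genes was at most 1.73%, below the spread between libraries of a group. The coefficient of variation of these levels was 5.24% to 14.4% in EYFP and 6.40% to 12.1% in ATG7. The Tgfb1 to Tgfbr2 ratio is different, because in ATG7 it varied by less than counting error alone gives.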
